A study of Mus musculus with 20 samples.

Results

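Decapsulated testes of newborn mice at day 3 after birth were compared with testes at day 1 by sequencing of RNA. The comparison rests on 4 of the 20 samples of the series, the 2 day 3 and the 2 day 1 RNA libraries, chosen by the labelled age and assay. All 4 came from wild-type C57Bl/6J mice, and the labels call the 2 libraries of an age biological replicates. How many animals were behind a library is not given in the sources used here. The series also holds 2 RNA libraries of day 7 testis from the same strain, which entered the fit only to add to the estimate of the spread, 4 RNA libraries of leptotene/zygotene and pachytene spermatocytes from adults aged 70 to 80 days, and 10 small RNA libraries.

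At birth the germ cells of the mouse testis, the prospermatogonia or gonocytes, lie arrested in the centre of the cords. In the first days after birth they take up division again, move to the basement membrane and become spermatogonia, while the Sertoli cells around them go on dividing. Fetal-type Leydig cells, peritubular muscle cells, vessels and macrophages make up much of the rest of the organ, and a whole-testis library mixes the cells it holds. Fewer cells of a type and less RNA per cell cannot be told apart in such libraries.

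The libraries matched their label as testis. Amh, anti-Müllerian hormone of the Sertoli cell, had 1659.7 and 986 CPM on day 3, against 1278 and 1222 CPM on day 1. Hsd3b1, a dehydrogenase of steroid synthesis in Leydig cells, had 519 and 388 CPM on day 3, against 675 and 661 CPM on day 1. Ddx4, the germ cell helicase, had 29.98 and 44.6 CPM on day 3, against 33.2 and 59.5 CPM on day 1. CPM are counts relative to library size, here after scaling by the trimmed mean of M values (TMM). Gene counts per library totalled 22181395 and 9427526 in the day 3 libraries and 6133551 and 8525886 in the day 1 libraries, so a count of 3 was worth 0.134 and 0.331 CPM on day 3, against 0.497 and 0.344 CPM on day 1.

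Replicate 1 of day 3 stood apart from the other 5 testis libraries. It lay at -63.3 on the second principal component, which held 26.2% of the variance, while day 3 replicate 2 lay at 0.85 and the day 1 libraries at 20.6 and 26.3. The log2 levels of the day 3 replicates differed with an SD of 0.651, against 0.387 for the day 1 replicates, and 1358 genes differed more than 2-fold between the day 3 replicates, against 480 between those of day 1. Reads outside any annotated feature took 16.2% of this library and 20.7% to 23% of the other 5. Some genes were far lower in it than in its partner. Rpl29, a ribosomal protein gene, had 0.0896 and 16.8 CPM on day 3, against 33.5 and 35 CPM on day 1, and Eif2c2, also called Ago2, the slicing Argonaute, had 19.4 and 117 CPM on day 3, against 117 and 130.1 CPM on day 1 (both chosen after their values were seen). The source of this departure was not tested. Day 3 replicate 2 in turn lay at 39.1 on the third component, which held 10.2% of the variance, where the other 5 lay between -19.7 and -2.77. Medians of many lists are given below also without replicate 1.

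Between day 3 and day 1, 7 of 15233 genes tested (0.046%) passed the threshold, an adjusted p of 0.05 or lower in edgeR's quasi-likelihood F test with Benjamini-Hochberg adjustment, and all 7 were lower at day 3. No gene was called higher (0% of those tested), although 1564 genes (10.3%) were higher and 1265 (8.3%) lower at an unadjusted p under 0.05. DESeq2 on the same libraries called 134 genes higher (0.88%) and 163 lower (1.07%), and edgeR with no filter on low counts called 126 higher (0.629%) and 96 lower (0.48%). The 7 genes were among the lower ones of both. Both day 3 libraries lay above both day 1 libraries in 4017 genes (26.4%) and below them in 3353 (22%).

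The largest of the 7 falls belonged to 2610507I01Rik, a long noncoding RNA gene of chromosome 11 by the RefSeq annotation. It had 3.99 and 3.31 CPM on day 3, against 24.5 and 33.7 CPM on day 1, a log2 fold change of -2.97 ± 0.28 (SE; adjusted p = 0.043). Its day 7 libraries had 38 and 25.8 CPM, so that the day 3 libraries lay below those of both other ages. As it is not stated that counting used strand, reads of an overlapping or antisense gene cannot be told apart from its own.

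Prtg, which encodes protogenin, a transmembrane protein of the immunoglobulin superfamily known from the early embryo, fell to 3.58 and 3.31 CPM on day 3, against 15.9 and 19.7 CPM on day 1 (log2 fold change -2.36 ± 0.20, adjusted p = 0.043). At day 7 its level was 27.1 and 25.4 CPM, above both younger ages in every library. C7, a component of the complement attack complex, had 11.7 and 11.9 CPM on day 3, against 52.7 and 42.7 CPM on day 1 (-2.01 ± 0.20, adjusted p = 0.043). Its day 7 libraries had 5.56 and 7.49 CPM, below those of both younger ages.

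Arrdc4 encodes an alpha-arrestin that limits glucose uptake and is known as a target of the glucose-sensing factors MondoA and ChREBP. It had 33.4 and 33.1 CPM on day 3, against 122 and 90.6 CPM on day 1, with a log2 fold change of -1.67 ± 0.17 (adjusted p = 0.043), and stood at 55.4 and 58.9 CPM at day 7. Its relative Txnip, a target of the same factors and chosen here after its values were seen, had 365 and 355 CPM on day 3, against 875 and 575 CPM on day 1. The 2 ages did not overlap for either gene, but Txnip was not called (log2 fold change -1.01 ± 0.20, adjusted p = 0.15). Their promoters are shown because the glucose-sensing factors bind pairs of E-box sites. The windows run from 250 bases before to 50 after the RefSeq start on GRCm38.p6, at chr7:68749189-68749488 on the minus strand for Arrdc4 and chr3:96557707-96558006 on the plus strand for Txnip. Capitals mark the palindrome CACGTG in Arrdc4 and the spaced pair in Txnip, both searched on both strands. The pair is 2 copies of CACGNG with 5 bases of any kind between them. CACGTG is also one form of the single site CACGNG, but the Arrdc4 window holds no such spaced pair.
Arrdc4: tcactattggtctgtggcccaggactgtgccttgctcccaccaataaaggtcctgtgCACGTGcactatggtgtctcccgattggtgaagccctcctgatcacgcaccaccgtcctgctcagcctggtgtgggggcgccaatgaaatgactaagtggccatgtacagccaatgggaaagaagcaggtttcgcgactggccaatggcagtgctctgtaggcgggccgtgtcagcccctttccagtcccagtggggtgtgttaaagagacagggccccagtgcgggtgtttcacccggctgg
Txnip: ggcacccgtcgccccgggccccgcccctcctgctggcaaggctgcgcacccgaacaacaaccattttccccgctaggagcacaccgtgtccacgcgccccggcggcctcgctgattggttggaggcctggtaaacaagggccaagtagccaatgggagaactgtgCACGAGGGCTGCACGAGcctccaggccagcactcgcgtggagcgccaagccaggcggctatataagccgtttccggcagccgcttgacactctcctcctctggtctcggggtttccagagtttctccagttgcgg
The palindrome was present in 7.15% of all 32851 promoter windows of the same length, and the spaced pair in 0.0487% of them. A different motif was marked in each gene, and Txnip was chosen after its values were seen, so these shares are no test. The matches begin 193 bases before the start of Arrdc4 and 85 before that of Txnip. These matches describe the letters of the windows and do not show binding.

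The remaining 3 falls were smaller. Kcns2, a modulatory subunit of voltage-gated potassium channels, had 11.6 and 10.2 CPM on day 3, against 32 and 33.3 CPM on day 1 (-1.58 ± 0.16, adjusted p = 0.043). Morf4l1, a chromodomain protein that reads methylated histone H3, had 7.98 and 7.84 CPM on day 3, against 23.7 and 23.6 CPM on day 1 (-1.58 ± 0.16, adjusted p = 0.043). It has near-identical copies elsewhere in the genome, so its count is uncertain. Cpq, a secreted carboxypeptidase, had 26.6 and 25.4 CPM on day 3, against 64.7 and 59.5 CPM on day 1 (-1.25 ± 0.13, adjusted p = 0.0467). At day 7 Kcns2 had 19.2 and 19 CPM, and Morf4l1 and Cpq had 26.2 and 24.6 and 57.9 and 58.4 CPM, so all 3 had their lowest libraries at day 3.

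**Figure D1:**
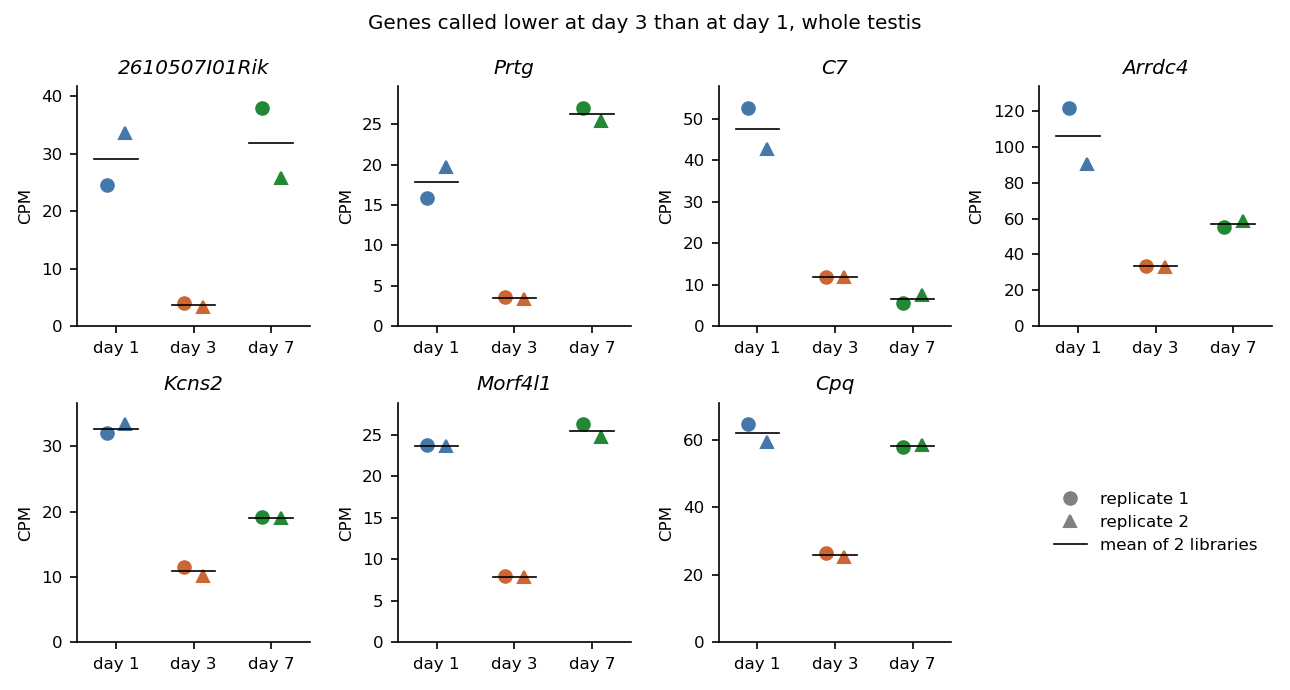
Level of each of the 7 genes called lower at day 3, in CPM on a linear axis from 0, per library at day 1, day 3 and day 7 (circle replicate 1, triangle replicate 2, line the mean of 2). The day 3 libraries lie close together and below day 1 in every panel, and C7 alone is lower still at day 7, at 5.56 and 7.49 CPM.

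Each of the 7 calls was lost when any 1 of the day 1 or day 7 libraries was left out, when the 2 ages were fitted alone, when all 10 RNA libraries were fitted, or with the replicate number as a block (0 genes called each time). The log2 fold changes moved little in these fits, between -3.17 and -2.72 for 2610507I01Rik and between -1.31 and -1.18 for Cpq. Each call held without day 3 replicate 1, where 222 genes were called lower (1.43%) and 218 higher (1.41%).

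Below the threshold, 5 more falls came next in order of p. Lrp2, the endocytic receptor megalin, had 2.2 and 3.31 CPM on day 3, against 15.3 and 13.5 CPM on day 1, a log2 fold change of -2.43 ± 0.29 (adjusted p = 0.0717). Col25a1, a membrane collagen, had 35.8 and 44.4 CPM on day 3, against 117 and 140.2 CPM on day 1 (-1.69 ± 0.20, adjusted p = 0.0717). Irs4, an adaptor of insulin and insulin-like growth factor receptors, had 3.27 and 4.08 CPM on day 3, against 17.4 and 14.2 CPM on day 1 (-2.12 ± 0.27). Scube1, a secreted and surface-bound glycoprotein, and Slc45a3, a membrane transporter, had log2 fold changes of -1.07 ± 0.14 and -1.07 ± 0.15. These 5 genes missed the threshold, with adjusted p between 0.0717 and 0.115.

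On the higher side, the 12 genes of smallest p among those with at least 5 CPM on average in the higher age also missed it, with adjusted p between 0.0601 and 0.115. First was Hist1h2bc, a histone H2B gene, at 16.5 and 14.8 CPM on day 3, against 4.31 and 4.47 CPM on day 1 (log2 fold change 1.84 ± 0.20); as a member of a multi-copy family it is uncertain. Ctsh, the lysosomal protease cathepsin H, had 60.7 and 48.2 CPM on day 3, against 18.7 and 24 CPM on day 1 (1.34 ± 0.19). Cst9, a cystatin made by Sertoli cells, had 210.4 and 210.3 CPM on day 3, against 118 and 113 CPM on day 1 (0.87 ± 0.13). Each of these had non-overlapping libraries, which the rule for naming them required.

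The other 9 of these genes were of varied kinds. Zg16, a lectin of secretory granules, had the largest fold change, 1.95 ± 0.30, with 28.4 and 17.9 CPM on day 3, against 4.81 and 7.1 CPM on day 1. Cidea, a lipid droplet protein, had 23 and 16.9 CPM on day 3, against 7.13 and 4.35 CPM on day 1 (1.84 ± 0.27), and S100b, a calcium-binding protein of glia and Schwann cells, had 22.8 and 19.6 CPM on day 3, against 8.95 and 9.16 CPM on day 1 (1.23 ± 0.18). Log2 fold changes were 1.68 ± 0.24 for Slc25a18, a mitochondrial glutamate carrier, 1.48 ± 0.23 for Ahsg, the plasma protein fetuin-A, and 0.87 ± 0.13 for Gstm7, a glutathione transferase. Rprml stood at 1.54 ± 0.23, Wfdc10 at 1.24 ± 0.19 and 4930550L24Rik, a gene of the X chromosome, at 0.99 ± 0.13.

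**Figure D2:**
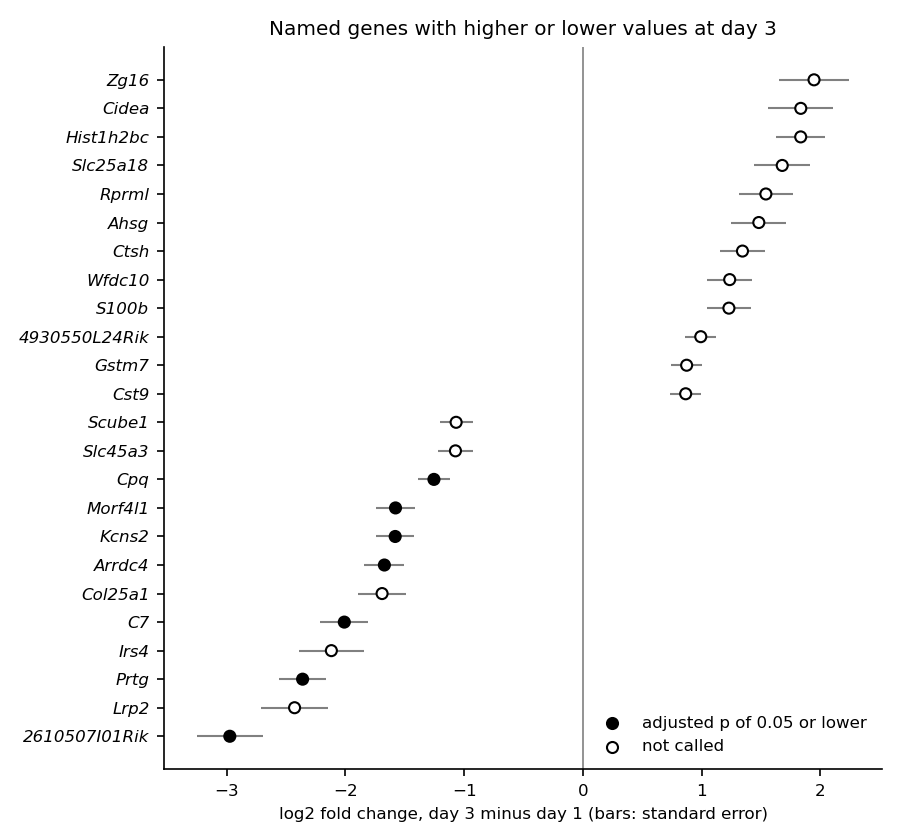
Log2 fold change, day 3 minus day 1, of the 12 named genes on the higher and the 12 on the lower side with the standard error of the fit as bars (edgeR, 6 testis libraries). Filled points are the 7 genes called at an adjusted p of 0.05 or lower, all left of 0; open points were not called.

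Genes of the dividing cell had higher values at day 3, by a modest amount and without a call. Of the 40 genes of G2 and mitosis, both day 3 libraries lay above both day 1 libraries in 35, and below in 0; over all genes 26.4% lay above. edgeR called 0 of them and DESeq2 4 higher (0.88% of all genes). At an unadjusted p under 0.05, 31 were higher (10.3% of all genes) and 0 lower (8.3%). The median log2 fold change was 0.55, against 0.03 over all genes tested. It was 0.44 without day 3 replicate 1 and 0.74 without replicate 2.

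Among the members, Kif2c, a kinesin that takes microtubules apart at the kinetochore, had 70.1 and 56.6 CPM on day 3, against 37.3 and 33.2 CPM on day 1 (log2 fold change 0.85 ± 0.18, adjusted p = 0.157). Ttk, the checkpoint kinase also called Mps1, had 45.3 and 41.7 CPM on day 3, against 28.7 and 25.2 CPM on day 1 (0.70 ± 0.15). Cdca8, the borealin subunit of the chromosomal passenger complex, had 98.9 and 73.5 CPM on day 3, against 51.4 and 44.8 CPM on day 1 (0.85 ± 0.18), and Plk1, the mitotic Polo kinase, had 88.7 and 73.8 CPM on day 3, against 49.7 and 47.9 CPM on day 1 (0.74 ± 0.17). For these 4 genes the ages did not overlap. Mki67, the marker of cycling cells, did not share this pattern, with 407 and 726 CPM on day 3, against 632 and 499 CPM on day 1 (0.00 ± 0.28), and the lowest and the highest of these 4 libraries were both from day 3.

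Of the 32 genes of DNA replication, both day 3 libraries lay above both day 1 libraries in 30 and below in 0, against 26.4% and 22% of all genes. edgeR called 0, 18 had an unadjusted p under 0.05 on the higher side (10.3% of all genes did) and 0 on the lower, and DESeq2 called 2 higher (0.88% of all genes). The median was 0.37, and 0.29 without day 3 replicate 1. Rrm2 and Tyms, enzymes that make deoxynucleotides, had 76.5 and 71.3 CPM on day 3, against 49.1 and 38.2 CPM on day 1 (0.76 ± 0.16) and 50.9 and 50.1 CPM on day 3, against 33.8 and 28.5 CPM on day 1 (0.70 ± 0.15). Uhrf1, which carries DNA methylation through replication, had 132 and 151 CPM on day 3, against 99.8 and 88.4 CPM on day 1 (0.59 ± 0.15). Of 14 D cyclins and cell cycle brakes, 2 had an unadjusted p under 0.05, both higher, and edgeR called 0 and DESeq2 1 higher. Cdkn1a, the p21 inhibitor, had 28.7 and 11.9 CPM on day 3, against 6.47 and 6.99 CPM on day 1 (1.61 ± 0.40, adjusted p = 0.166), and Cdkn1b, the p27 inhibitor, 81.7 and 66.4 CPM on day 3, against 74.9 and 70.8 CPM on day 1 (0.03 ± 0.15).

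The promoters of 3 genes of these lists are shown, picked because each holds a motif known from cell cycle genes. The repressor complex DREAM is known to bind TTTGAA in many genes of mitosis, NF-Y binds CCAAT, and E2F factors bind TTTGGCGC in many genes of replication. The windows on GRCm38.p6 are chr4:117178723-117179022 on the minus strand for Kif2c, chr9:83834439-83834738 on the plus strand for Ttk and chr8:75109259-75109558 on the plus strand for Mcm5, a subunit of the replicative helicase. Each motif was searched on both strands. Capitals mark TTTGAA in Kif2c and Ttk and TTTGGCGC in Mcm5, all in the reverse orientation. The match in Ttk begins past the RefSeq start, and the Kif2c window holds 0 matches of CCAAT.
Kif2c: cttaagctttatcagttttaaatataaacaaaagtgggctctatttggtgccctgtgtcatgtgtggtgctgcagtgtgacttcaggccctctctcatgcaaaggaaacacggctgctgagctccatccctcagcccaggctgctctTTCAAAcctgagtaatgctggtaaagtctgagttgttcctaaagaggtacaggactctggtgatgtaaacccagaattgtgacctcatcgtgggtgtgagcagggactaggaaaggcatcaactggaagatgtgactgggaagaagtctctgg
Ttk: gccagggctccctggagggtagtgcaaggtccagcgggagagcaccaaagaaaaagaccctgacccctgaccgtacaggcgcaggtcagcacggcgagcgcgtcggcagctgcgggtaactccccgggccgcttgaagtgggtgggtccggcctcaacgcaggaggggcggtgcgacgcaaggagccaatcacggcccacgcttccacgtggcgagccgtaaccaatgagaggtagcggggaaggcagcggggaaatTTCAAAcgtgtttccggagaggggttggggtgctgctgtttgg
Mcm5: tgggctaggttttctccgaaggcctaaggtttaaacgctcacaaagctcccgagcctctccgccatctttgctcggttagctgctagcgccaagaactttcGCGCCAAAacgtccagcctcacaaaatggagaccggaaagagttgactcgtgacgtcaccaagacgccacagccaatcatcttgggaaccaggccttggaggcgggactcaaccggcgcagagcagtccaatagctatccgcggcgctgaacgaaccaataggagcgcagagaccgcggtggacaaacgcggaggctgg
TTTGAA was present in the windows of 25 of 35 genes of G2 and mitosis (71.4%), in 4 of 26 genes of S phase (15.4%) and in 20.2% of all genes with a window. TTTGGCGC was in 6 of the 26 S phase genes (23.1%), in 0 of the 35 genes of G2 and mitosis and in 0.585% of all genes. CCAAT was in 27 of the 35 (77.1%), against 41.1% of all genes. None of these 3 motifs contains another, and a match is not a bound site. Mcm5 had 198 and 180.5 CPM on day 3, against 142 and 135 CPM on day 1 (0.45 ± 0.13).

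Replication-dependent histone genes, whose transcripts normally carry no poly(A) tail, were mostly too low to test, and 10 of 68 passed the filter on low counts. Those that passed could do so through 1 age alone, so their counts say nothing of the family. Summed over all 68, the level was 143 and 115 CPM on day 3, against 72 and 52.8 CPM on day 1. Hist1h1c, a linker histone, had 55.6 and 33.3 CPM on day 3, against 23 and 12.4 CPM on day 1 (1.36 ± 0.34, adjusted p = 0.166). These families hold near-identical copies and their counts are uncertain.

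The enzymes that make cholesterol, which testis cells need for membranes and steroids, also had higher values at day 3. Both day 3 libraries lay above both day 1 libraries in 19 of 23 genes and below in 1, where 26.4% of all genes lay above. edgeR called 0, 15 had an unadjusted p under 0.05 on the higher side (10.3% of all genes did) and 0 on the lower, and DESeq2 called 1 higher (0.88% of all genes). The median log2 fold change was 0.53, and 0.31 without day 3 replicate 1.

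Sqle, squalene epoxidase, had 113 and 101 CPM on day 3, against 71.3 and 63.1 CPM on day 1 (0.67 ± 0.14, adjusted p = 0.15). Dhcr7, the last enzyme of the pathway, had 104 and 94.8 CPM on day 3, against 64.5 and 69.4 CPM on day 1 (0.57 ± 0.13). Sc4mol and Cyp51, both demethylases of the sterol ring, had 87.6 and 72.7 CPM on day 3, against 51.4 and 47.9 CPM on day 1 (0.69 ± 0.16) and 118 and 100.3 CPM on day 3, against 76.8 and 64 CPM on day 1 (0.64 ± 0.15). In each of these 4 genes the ages did not overlap. The promoter of Dhcr7 is shown because sterol genes are known to pair a CCAAT box, bound by NF-Y, with sites of the sterol-sensing factor SREBP. It is 1 of 3 RefSeq windows of the gene, at chr7:143829964-143830263 on the plus strand of GRCm38.p6, and capitals mark CCAAT on either strand.
Dhcr7: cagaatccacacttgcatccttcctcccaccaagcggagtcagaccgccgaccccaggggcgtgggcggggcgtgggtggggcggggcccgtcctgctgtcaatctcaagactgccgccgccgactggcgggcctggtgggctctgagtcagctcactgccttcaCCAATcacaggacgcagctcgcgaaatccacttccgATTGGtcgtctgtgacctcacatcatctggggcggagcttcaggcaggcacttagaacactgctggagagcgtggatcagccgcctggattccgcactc
CCAAT was present in 15 of 16 cholesterol genes with a window (93.8%), against 41.1% of all genes with a window. Genes of steroid synthesis were mixed. Of 14 Leydig cell genes edgeR called 0 and DESeq2 called 0, and the median was 0.04. At an unadjusted p under 0.05, 2 were higher (10.3% of all genes) and 1 lower (8.3%). Fdxr, which feeds electrons to mitochondrial steroid enzymes, had 339 and 240.3 CPM on day 3, against 187 and 177 CPM on day 1 (0.67 ± 0.18), while the log2 fold change of Hsd3b1 was -0.56 ± 0.19. Cyp17a1, the androgen-forming lyase, and Insl3, the peptide of testis descent, overlapped between the ages, with log2 fold changes of -0.37 ± 0.34 and -0.11 ± 0.36.

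**Figure D3:**
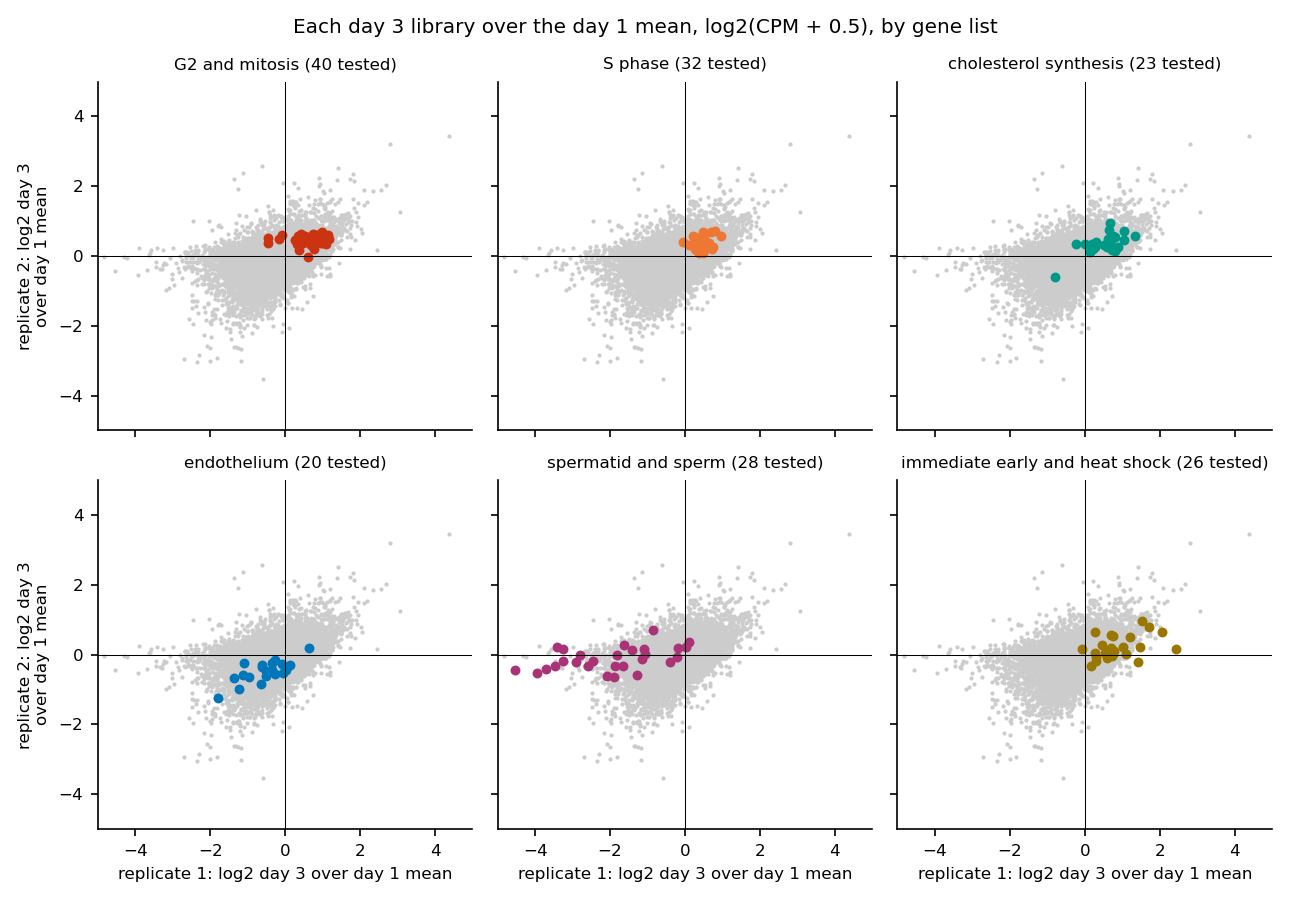
Log2 level of each day 3 library over the mean of the 2 day 1 libraries, computed as log2(CPM + 0.5), with replicate 1 across and replicate 2 up; grey points are all 15233 genes tested and coloured points the members of 1 list per panel. Both axes share the day 1 mean, so points lean to the diagonal; members of the G2 and mitosis and S phase lists lie mostly in the upper right, endothelial members in the lower left, and spermatid genes are spread along replicate 1 alone.

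Sertoli cell genes were modestly higher in part. Of 31 genes, both day 3 libraries lay above both day 1 libraries in 15 and below in 1, against 26.4% and 22% of all genes. edgeR called 0 and DESeq2 5 higher (0.88% of all genes). At an unadjusted p under 0.05, 11 were higher (10.3% of all genes) and 0 lower (8.3%). The median was 0.17, and 0.17 without day 3 replicate 1. Besides Cst9, Nr0b1, the orphan receptor also called Dax1, had 60.4 and 47.2 CPM on day 3, against 33 and 24 CPM on day 1 (0.93 ± 0.20, adjusted p = 0.157). Rhox8, a homeobox gene of the X chromosome, had 121 and 98.9 CPM on day 3, against 73.8 and 53 CPM on day 1 (0.80 ± 0.19), and Aard 509 and 537 CPM on day 3, against 374 and 303 CPM on day 1 (0.63 ± 0.15). Amh overlapped between the ages (0.08 ± 0.23), as did Fshr, the receptor for follicle-stimulating hormone, at 34.5 and 48 CPM on day 3, against 38.6 and 34.1 CPM on day 1 (0.18 ± 0.19).

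Smooth muscle genes of the peritubular cells, which wrap the cords, had higher values at day 3 in part. Both day 3 libraries lay above both day 1 libraries in 7 of 13 and below in 1, against 26.4% and 22% of all genes. The members of smallest p included Acta2, smooth muscle actin, at 916 and 674 CPM on day 3, against 493 and 409 CPM on day 1 (0.82 ± 0.19, adjusted p = 0.157), Tagln, the actin-binding transgelin, at 448 and 269 CPM on day 3, against 187 and 144 CPM on day 1 (1.11 ± 0.25), and Cnn1, calponin, at 43.1 and 26.8 CPM on day 3, against 17.7 and 16.4 CPM on day 1 (1.05 ± 0.24). Of the 13 genes edgeR called 0 and DESeq2 3 higher (0.88% of all genes). At an unadjusted p under 0.05, 5 were higher (10.3% of all genes) and 0 lower (8.3%). The median was 0.40, and 0.22 without day 3 replicate 1. Matrix and junction genes lay near the middle of all genes. Of 42 matrix genes 2 were higher and 3 lower at an unadjusted p under 0.05, edgeR called 0 and DESeq2 1 lower, and the median was 0.01. Fbln1, a fibulin of elastic fibres and basement membranes, had 112 and 112 CPM on day 3, against 177 and 151 CPM on day 1 (-0.55 ± 0.13), and Col1a1, the chain of type I collagen, 3291 and 4022 CPM on day 3, against 3748 and 2861 CPM on day 1 (0.15 ± 0.18). Of 19 junction genes 4 were higher and 0 lower at an unadjusted p under 0.05, and edgeR and DESeq2 called 0.

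Endothelial genes had lower values at day 3. Both day 3 libraries lay below both day 1 libraries in 16 of 20 genes and above in 1, while 22% of all genes lay below. edgeR called 0 and DESeq2 5 lower (1.07% of all genes). At an unadjusted p under 0.05, 10 were lower (8.3% of all genes) and 0 higher (10.3%). The median was -0.46, and it was -0.49 without day 3 replicate 1 and -0.50 without replicate 2. Summed over the list, the level was 890.0 and 978 CPM on day 3, against 1352 and 1209 CPM on day 1.

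Vwf, the clotting factor stored by endothelium, had 16.3 and 24.2 CPM on day 3, against 63.2 and 53.6 CPM on day 1 (-1.54 ± 0.21, adjusted p = 0.115). Aplnr, the apelin receptor of sprouting vessels, had 33.6 and 39.5 CPM on day 3, against 90.5 and 69.7 CPM on day 1 (-1.13 ± 0.19, adjusted p = 0.116). Tek and Tie1, the receptors of the angiopoietin system, had log2 fold changes of -0.82 ± 0.18 and -0.75 ± 0.18. Cdh5, the cadherin of vascular junctions, had 229 and 285 CPM on day 3, against 356 and 343 CPM on day 1 (-0.44 ± 0.14). All 5 had non-overlapping ages.

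Markers of the organ's cover lay lower as well, and those of ducts in part. Mesothelial genes summed to 99.6 and 112 CPM on day 3, against 185 and 151 CPM on day 1, and 5 of 6 did not overlap, all below, where 22% of all genes lay below. edgeR and DESeq2 called 0, and 3 were lower at an unadjusted p under 0.05, as were 8.3% of all genes. The testes had been decapsulated, a step that strips the cover. Msln, mesothelin, had 22.4 and 16.9 CPM on day 3, against 32.3 and 29.1 CPM on day 1 (-0.63 ± 0.23). Bnc1, the member of smallest p, had 9.14 and 19.4 CPM on day 3, against 26.4 and 29.5 CPM on day 1 (-1.01 ± 0.32). The members did not move alike to day 7, where Bnc1 had 44.9 and 42.1 CPM and Msln 5.03 and 7.66 CPM. The median of the list was -0.64, and -0.72 without day 3 replicate 1. Genes of the epididymis and Wolffian duct summed to 43.2 and 45.1 CPM on day 3, against 74.3 and 55.9 CPM on day 1. Of 7 tested, 3 were lower (8.3% of all genes) and 0 higher at an unadjusted p under 0.05, and 0 were called by edgeR or DESeq2. Both day 3 libraries lay below both day 1 libraries in 4 and above in 1. The 1 above was Pax2, at 5.51 and 4.53 CPM on day 3, against 4.14 and 1.83 CPM on day 1 (0.81 ± 0.40). Emx2, a homeobox gene of the urogenital ducts, had 9.1 and 9.16 CPM on day 3, against 15.1 and 13.9 CPM on day 1 (-0.66 ± 0.19). Whether a share of these tissues taken along at dissection moved with other results was not tested.

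Signals to the germ cell niche and the receptors that read hormones gave more lower than higher values. Of 22 ligands, 6 were lower (8.3% of all genes) and 0 higher (10.3%) at an unadjusted p under 0.05. edgeR called 0 and DESeq2 2 lower (1.07% of all genes). The median was -0.09. Wnt5a, a noncanonical Wnt ligand, had 182 and 216 CPM on day 3, against 301 and 296 CPM on day 1 (-0.58 ± 0.13, adjusted p = 0.157). Igf2, the imprinted fetal growth factor, had 806 and 878 CPM on day 3, against 1267 and 1089 CPM on day 1 (-0.48 ± 0.14), and Cxcl12, the chemokine that guides germ cells, had 545 and 388 CPM on day 3, against 711 and 654 CPM on day 1 (-0.55 ± 0.18). Day 7 values of these 3 genes were lower than at either younger age, at 116 and 119.9, 459 and 477 and 193 and 211 CPM.

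Among 14 hormone receptors, 4 were lower (8.3% of all genes) and 1 higher (10.3%) at an unadjusted p under 0.05. edgeR called 0 and DESeq2 1 lower (1.07% of all genes). The median of -0.41 rested on day 3 replicate 1: without it the median was -0.05. Ghr, the growth hormone receptor, had 53.1 and 62.6 CPM on day 3, against 89.9 and 88.8 CPM on day 1 (-0.63 ± 0.14), with close replicates. Amhr2, the receptor of the Amh hormone, was the 1 on the higher side, with 171 and 148 CPM on day 3, against 119.7 and 96.7 CPM on day 1 (0.56 ± 0.15). Of 24 imprinted genes tested, 3 were higher and 2 lower at an unadjusted p under 0.05, edgeR called 0 and DESeq2 1 lower; Nnat, neuronatin, had 122 and 85.4 CPM on day 3, against 67 and 55.1 CPM on day 1 (0.77 ± 0.21).

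edgeR called 0 genes in each of the germ cell lists, and for several germ cell genes the day 1 replicates stood apart. Dazl, an RNA-binding protein of germ cells, had 64 and 91.5 CPM on day 3, against 65.3 and 130.4 CPM on day 1 (-0.34 ± 0.31). Of 16 genes of germ cell identity, 3 were lower (8.3% of all genes) and 0 higher (10.3%) at an unadjusted p under 0.05, and DESeq2 called 0. The median was -0.39, and -0.17 without day 3 replicate 1. It moved with the day 1 libraries, at 0.03 without day 1 replicate 2 and -0.72 without day 1 replicate 1.

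Prospermatogonial genes lay lower in part. Of 17 genes, 6 were lower (8.3% of all genes) and 0 higher (10.3%) at an unadjusted p under 0.05, and DESeq2 called 1 lower (1.07%). The median was -0.33, and it was -0.38 without day 3 replicate 1 and -0.12 without day 1 replicate 2. Tdrd9, a helicase of the fetal piRNA pathway, had 13 and 10.5 CPM on day 3, against 28 and 44.2 CPM on day 1 (-1.61 ± 0.24, adjusted p = 0.115), and its day 7 libraries had 44.4 and 42.1 CPM. Prdm1, the repressor Blimp1 of germ cell specification, had 6.86 and 5.63 CPM on day 3, against 13.4 and 11.5 CPM on day 1 (-0.98 ± 0.22), and Elavl2, an RNA-binding protein, 9.95 and 11.3 CPM on day 3, against 15.4 and 21.4 CPM on day 1 (-0.81 ± 0.21). Dnmt3l, the cofactor of methylation in fetal germ cells, had 3.32 and 0.552 CPM on day 3, against 5.64 and 11.5 CPM on day 1 (-2.00 ± 0.65, adjusted p = 0.203), and was at 0.526 and 0.749 CPM at day 7. Pou5f1, the pluripotency factor Oct4, overlapped, at 5.33 and 6.07 CPM on day 3, against 4.31 and 6.3 CPM on day 1 (0.08 ± 0.28).

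Of 21 piRNA genes, 6 were lower (8.3% of all genes) and 1 higher (10.3%) at an unadjusted p under 0.05, and DESeq2 called 1 lower (1.07%). The median of -0.54 was -0.20 without day 3 replicate 1, 0.07 without day 1 replicate 2 and -0.91 without day 1 replicate 1. Some of these genes are also in the lists of prospermatogonia and of germ cell identity. Piwil4, the PIWI protein of fetal prospermatogonia, overlapped between the ages, at 2.69 and 3.09 CPM on day 3, against 2.16 and 6.76 CPM on day 1 (-0.69 ± 0.47), and Piwil1, which acts in adult pachytene cells, had 1.34 and 1.55 CPM on day 3, against 2.82 and 3.78 CPM on day 1 (-1.22 ± 0.33). Of 18 genes of DNA methylation, 1 was higher and 4 lower at an unadjusted p under 0.05, with 0 called by edgeR or DESeq2.

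Spermatogonial genes gave no common direction. Of 21 genes of undifferentiated spermatogonia 3 were higher (10.3% of all genes) and 3 lower (8.3%) at an unadjusted p under 0.05. DESeq2 called 1 each way (0.88% and 1.07% of all genes). Lhx1, a homeobox gene induced by Gdnf, had 5.51 and 14.6 CPM on day 3, against 2.82 and 2.63 CPM on day 1 (1.84 ± 0.49), and Sox3, of progenitors, had 1.66 and 1.1 CPM on day 3, against 2.98 and 4.47 CPM on day 1 (-1.38 ± 0.31). For some other members the day 3 replicates lay far apart. Zbtb16, the factor Plzf that keeps spermatogonia undifferentiated, had 7.57 and 25.3 CPM on day 3, against 15.1 and 16.3 CPM on day 1 (0.00 ± 0.51), and Gfra1, the receptor of Gdnf, had 13.8 and 28.6 CPM on day 3, against 16.9 and 22.9 CPM on day 1 (0.05 ± 0.34). For both the lowest and the highest of the 4 libraries were from day 3.

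Of 9 genes of differentiating spermatogonia 1 was higher and 2 lower at an unadjusted p under 0.05, with 0 called by edgeR or DESeq2. Over all genes tested, 10.3% were higher and 8.3% lower at that p, and DESeq2 called 0.88% higher and 1.07% lower. These shares are also the background for the next lists. Kit, the receptor that marks differentiating cells and is also in the prospermatogonial list, had 26.4 and 31.8 CPM on day 3, against 44.9 and 40.7 CPM on day 1 (-0.56 ± 0.15, adjusted p = 0.179). Stra8, which responds to retinoic acid before meiosis, had 2.2 and 4.42 CPM on day 3, against 1.82 and 2.18 CPM on day 1 (0.60 ± 0.43) and stood at 71 and 51 CPM at day 7. Of 25 meiotic prophase genes 3 were lower and 0 higher at an unadjusted p under 0.05, edgeR called 0 and DESeq2 1 lower; Sycp3, a protein of the chromosome axis, had 4.12 and 2.76 CPM on day 3, against 5.97 and 11.2 CPM on day 1 (-1.30 ± 0.33). Of 22 retinoic acid genes 3 were lower and 0 higher at an unadjusted p under 0.05, and both tools called 0. Among the 3 was Rxrg, with 8 and 9 reads at day 1, which could pass the filter on low counts through day 1 alone. Of 13 genes of miRNA processing 2 were lower and 0 higher, with 0 called by either tool; their median of -0.43 was -0.11 without day 3 replicate 1.

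**Figure D4:**
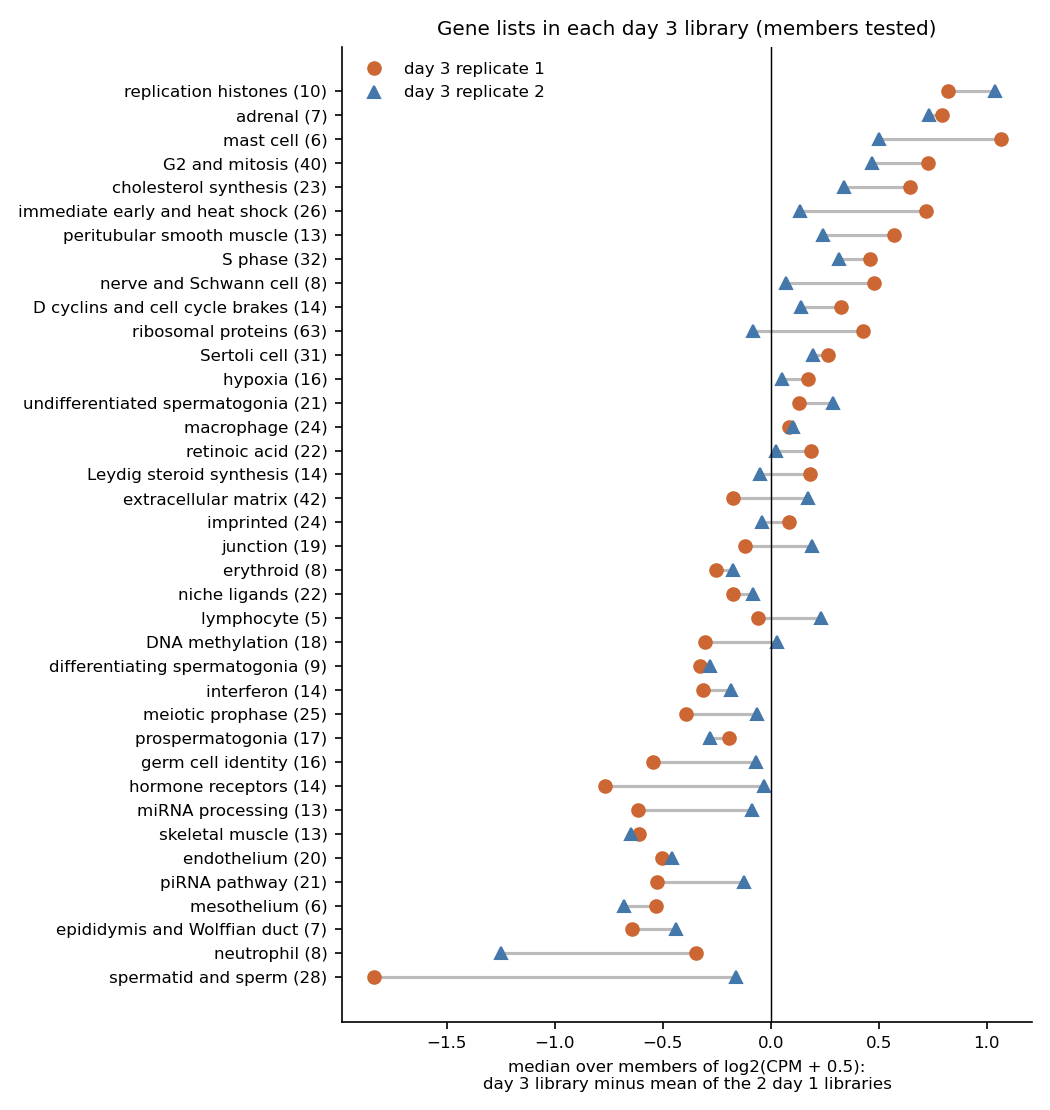
Median over the tested members of each list of log2(CPM + 0.5) in a day 3 library minus the mean of the 2 day 1 libraries; circles are day 3 replicate 1, triangles replicate 2, and lists with fewer than 5 tested members are left out. G2 and mitosis lies at 0.73 and 0.47 and endothelium at -0.50 and -0.46, whereas the spermatid list lies at -1.84 and -0.16.

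Transcripts of spermatids and sperm, cells that a newborn testis does not yet hold, differed mainly between the day 3 replicates. The list of 35 genes summed to 24 and 106 CPM on day 3, against 117 and 126 CPM on day 1, and to 29.1 and 30.1 CPM at day 7. Prm2, a protamine that packs sperm DNA, had 0.0448 and 8.94 CPM on day 3, against 12.1 and 12.4 CPM on day 1, and Tnp1, a transition protein of the same process, had 0.134 and 4.75 CPM on day 3, against 5.31 and 5.73 CPM on day 1. Day 3 replicate 2 lay close to the day 1 libraries, and 7 of the 35 genes had 0 counts in replicate 1 and 0 of 35 did in the others of these 4 libraries. Of 28 tested, 2 were lower (8.3% of all genes) and 0 higher (10.3%) at an unadjusted p under 0.05, and edgeR and DESeq2 called 0. The median of -1.25 was -0.24 without day 3 replicate 1. Low members could pass the filter on low counts through day 1 alone, so these counts and this median say nothing of the list's change between the ages. The origin of these transcripts was not tested.

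Immediate early and heat shock genes, which respond to handling of tissue, were high in the same library. They summed to 2659.7 and 1603 CPM on day 3, against 1506 and 1379 CPM on day 1. Of 26 tested, 8 were higher (10.3% of all genes) and 0 lower (8.3%) at an unadjusted p under 0.05. edgeR called 0 and DESeq2 3 higher (0.88% of all genes), and the median of 0.50 was 0.06 without day 3 replicate 1. Btg2, an antiproliferative early response gene, had 77.2 and 66.3 CPM on day 3, against 44.8 and 45.9 CPM on day 1 (0.66 ± 0.14), and Ctgf, a matrix-bound growth factor and target of Yap, 262 and 137 CPM on day 3, against 88.5 and 70.2 CPM on day 1 (1.34 ± 0.29). Ribosomal protein genes summed to 10382 and 7050.1 CPM on day 3, against 7918 and 7552 CPM on day 1; 3 of 63 were higher and 2 lower at an unadjusted p under 0.05, edgeR called 0 and DESeq2 1 lower. Their median of 0.23 turned to -0.11 without day 3 replicate 1. Of 16 hypoxia genes 3 were higher and 0 lower, with 0 called by either tool, and their median of 0.12 was -0.01 without that library. The part of these genes in the cell cycle and cholesterol values was not tested.

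Summed over their lists, mast cell and adrenal genes stood higher at day 3 in both libraries. Mast cell genes summed to 107 and 70.2 CPM on day 3, against 45.1 and 41.5 CPM on day 1 and 32.3 and 30.2 CPM at day 7. Tpsab1, of the tryptase family of mast cell granules and a transcribed pseudogene by the RefSeq annotation, had 25.2 and 12.9 CPM on day 3, against 0.663 and 0.802 CPM on day 1 (4.68 ± 0.90, adjusted p = 0.142), resting on 4 and 7 reads at day 1. Of 6 genes 5 were higher (10.3% of all genes) and 0 lower (8.3%) at an unadjusted p under 0.05, edgeR called 0 and DESeq2 1 (0.88%). Low members such as Tpsab1 could pass the filter on low counts through day 3 alone, so these counts say nothing of the list.

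Adrenal genes summed to 185 and 105 CPM on day 3, against 82.6 and 42.1 CPM on day 1 and 18.4 and 19.3 CPM at day 7. Cyp21a1, the 21-hydroxylase of adrenal steroid synthesis, had 15 and 20.1 CPM on day 3, against 3.32 and 0.802 CPM on day 1 (3.18 ± 0.53, adjusted p = 0.116), and Akr1b7, a reductase of the adrenal cortex, 18.7 and 18 CPM on day 3, against 12.4 and 9.05 CPM on day 1 (0.79 ± 0.24). Of 7 genes 4 were higher (10.3% of all genes) and 0 lower (8.3%) at an unadjusted p under 0.05, edgeR called 0 and DESeq2 1 (0.88%). Pnmt, the enzyme that makes adrenaline, varied within each age, with 142 and 53.1 CPM on day 3, against 57.5 and 25.5 CPM on day 1, and the ages overlapped. This gene was the largest part of the adrenal sum in each day 3 and day 1 library. Whether these values reflect tissue taken along or cells of the testis was not tested.

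**Figure D5:**
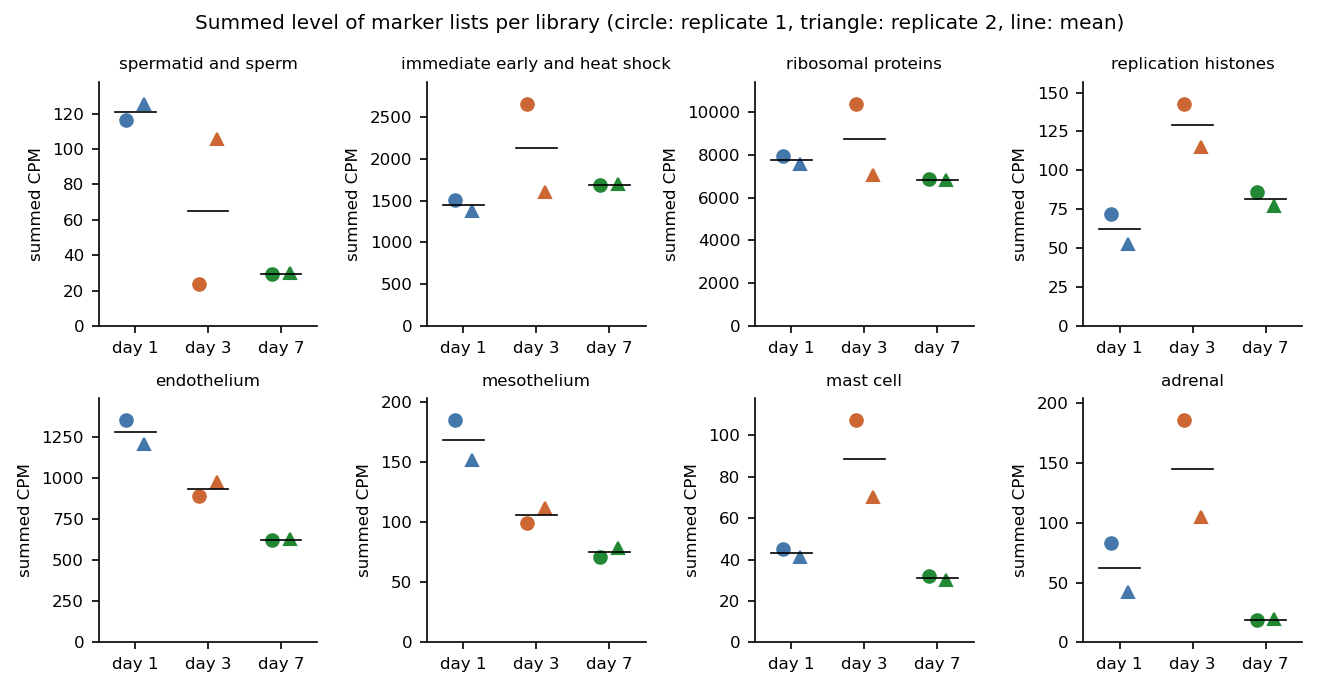
Summed CPM over all members of 8 lists per library at day 1, day 3 and day 7 on linear axes from 0 (circle replicate 1, triangle replicate 2, line the mean). Day 3 replicate 1 departs from its partner in the spermatid (24 against 106 CPM), immediate early and ribosomal panels, while both day 3 libraries lie below day 1 for endothelium and mesothelium and above it for mast cell, adrenal and replication histone genes.

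Among blood and other cells, macrophage genes gave 5 higher and 1 lower of 24 at an unadjusted p under 0.05, against 10.3% and 8.3% of all genes. edgeR and DESeq2 called 0, and the median was 0.12. Cd68, a lysosomal protein of macrophages, had 9.41 and 9.6 CPM on day 3, against 6.13 and 5.27 CPM on day 1 (0.74 ± 0.21), while Csf1r, the receptor that sustains them, had 27.5 and 30.6 CPM on day 3, against 26.4 and 27.1 CPM on day 1 (0.11 ± 0.17). Neutrophil genes summed to 47.7 and 23.7 CPM on day 3, against 36.8 and 90.6 CPM on day 1, with overlapping ages. Of 8 tested, 1 was lower at an unadjusted p under 0.05, with 0 called by edgeR or DESeq2. Low members could pass the filter through 1 age alone, so this count says nothing of the list. Of 5 lymphocyte genes 0 had an unadjusted p under 0.05 and 0 were called by edgeR or DESeq2. Of 14 interferon genes 1 was lower, Rsad2, an antiviral enzyme, at 1.75 and 2.43 CPM on day 3, against 8.79 and 4.58 CPM on day 1 (-1.69 ± 0.42), with 0 called by either tool.

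Erythroid genes gave 2 higher and 2 lower of 8 at an unadjusted p under 0.05, against 10.3% and 8.3% of all genes. edgeR called 0 and DESeq2 1 higher (0.88% of all genes). Low members of this list and of the skeletal muscle list could pass the filter through 1 age alone, so their counts say nothing of the lists. Gata1, which Sertoli cells also express, had 7.3 and 4.86 CPM on day 3, against 2.98 and 1.37 CPM on day 1 (1.58 ± 0.38), and Slc4a1, the anion exchanger of red cells, 0.269 and 0.993 CPM on day 3, against 3.98 and 3.09 CPM on day 1 (-2.69 ± 0.68). Of 13 skeletal muscle genes 6 were lower and 2 higher at an unadjusted p under 0.05, with 0 called by either tool; Myh2, a fast myosin, had 0.807 and 0.773 CPM on day 3, against 2.49 and 3.44 CPM on day 1 (-1.90 ± 0.41). Of 8 nerve genes 3 were higher and 1 lower, edgeR called 0 and DESeq2 1 each way. Ngfr, the low-affinity neurotrophin receptor, was the lower one, with 61.1 and 52.3 CPM on day 3, against 129 and 119 CPM on day 1 (-1.13 ± 0.21, adjusted p = 0.137), and stood at 14.2 and 22.6 CPM at day 7. Of 3 adipocyte genes tested 1 was higher at an unadjusted p under 0.05 and 0 were called by edgeR or DESeq2.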

How the data were processed

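RNA was extracted with TRIzol from decapsulated testes and sequenced from Illumina TruSeq libraries, per the labels' protocols. The authors deposited raw counts per gene, whole numbers whose totals differ between libraries, in a table of 23366 genes and 5 summary rows. BWA 0.7.8, Bowtie 0.12.7, HTSeq 0.6.1, edgeR 3.6.8 and the mm9 build are named in the submitters' processing notes; the sources used here give neither their roles nor whether counting used strand. The summary rows, which held 44.7% to 51.8% of the reads of the 6 testis libraries, were left out. The small RNA table was not analysed here, and the spermatocyte libraries entered an alternative fit alone.

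Counts of the 15233 genes that passed edgeR's filterByExpr (minimum count 10) were scaled by TMM and tested with edgeR 4.0.16 (R 4.3.3) by the two-sided quasi-likelihood F test over the 6 testis libraries, with 3 residual degrees of freedom and 4.37 prior degrees of freedom from all genes. A gene low at the other ages could pass the filter through 1 age alone, which limits counts of members in lists of low genes. Calls were made at an adjusted p of 0.05. The size of a log2 fold change was divided by the root of its F to give the standard error. Alternatives were DESeq2 1.42.0, other scalings, no filter, other sets of libraries, the replicate number as a block and each library left out.

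The members and the 39 gene lists were chosen with earlier results of these data known, and no list was tested as a set. Named genes were the 12 largest changes each way among called genes of at least 5 CPM with ages that did not overlap, filled up by unadjusted p, up to 4 members per list by p, and a fixed set; Txnip, Rpl29, Eif2c2 and Mcm5 were chosen outside this rule, Mcm5 for its promoter motif. Gene names and promoter sequences are from RefSeq (GRCm38.p6), whose build differs from that of the counts. Coordinates are given for promoter windows alone, on GRCm38.p6. The 5 called genes other than Kcns2 and Cpq have a promoter window there. Depth limits low genes most, and floors of 3 counts cover counting error only.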

Additional observations from a re-analysis of the deposited data

How the results depend on the processing

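The number of genes called between day 3 and day 1 depended strongly on the fit. Median-ratio and upper-quartile scaling also gave 7 calls, all lower, and moved the median of all genes by less than 0.1 on the log2 scale. DESeq2 called 297 genes (134 higher, 163 lower) and a fit without a filter on low counts 222 (126 higher, 96 lower). A fit of the 4 day 3 and day 1 libraries alone, and a fit of all 10 RNA libraries, called 0, with 1718 and 1097 genes at an unadjusted p under 0.05. Leaving out 1 library gave between 0 and 6665 calls, of which 0 to 3378 were higher and 0 to 3287 lower: 0 without either day 1 or either day 7 library, 440 without day 3 replicate 1 and 6665 without day 3 replicate 2, where the remaining day 3 library is assumed to vary like the other ages. The cause was not tested. Without replicate 2 of day 3, 3 named genes turned lower that were near 0 in the fit of both: Zbtb16 (log2 fold change -1.04, and 0.66 without replicate 1), Gfra1 (-0.54 and 0.48) and Mki67 (-0.46 and 0.34). Between the fits without replicate 1 and without replicate 2 of day 3, 145 higher and 180 lower calls were shared, and 12 genes were called higher in the first and lower in the second.

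Replicate numbers are shared between the ages in the labels, but same-numbered libraries did not deviate together (correlations of -0.0237 between day 3 and day 1, -0.0702 between day 7 and day 1 and -0.0227 between day 7 and day 3). With the replicate number as a block edgeR called 0 genes, and 2574 had an unadjusted p under 0.05. Each age has 2 libraries, and the p-values rest on 3 residual and 4.37 prior degrees of freedom, so differences of modest size cannot be told from replicate spread.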
